A study of Mus musculus with 6 samples.

Results

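The enzymes that add methyl groups to lysines of histone H3, and those that take them off, were described in spermatogonia of mice that had lost Ddx20. The set held 41 genes, chosen by name from the 22579 genes of the deposited count table with the Polycomb Ezh genes left out, and all 41 were found in it. The 6 RNA-seq libraries, each from some 1000 spermatogonia selected for THY1 at day 4, came in equal number from Ddx20 knockouts (3) and their control littermates (3). Selection for THY1, a cell surface protein, enriches spermatogonia that have not begun to differentiate, and DDX20 is an RNA helicase of the SMN complex, which assembles spliceosomal particles. The labels also write cKO for the knockout, and name neither a Cre driver nor the deleted exons. They give no strain, and do not say whether animals were pooled.

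Histone lysine methyltransferases, the writers, move a methyl group from S-adenosylmethionine to a lysine, nearly all through a SET domain, with DOT1L as the known exception. Demethylases, the erasers, are either flavin oxidases (KDM1A and KDM1B) or JmjC dioxygenases that use iron and 2-oxoglutarate. Methylation of H3K4 marks promoters and enhancers, that of H3K9 heterochromatin, that of H3K27 genes silenced by Polycomb, and those of H3K36 and H3K79 the bodies of transcribed genes. In mouse testis KDM1A is needed to maintain spermatogonia, SUV39H1 and SUV39H2 act together in heterochromatin of meiotic cells, EHMT2 is needed in early meiosis, and PRDM9 places recombination hotspots.

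In the knockouts 3 of these genes were lower and 1 was higher. Kmt2d, the gene of an enhancer H3K4 methyltransferase, Kdm5b, an H3K4 demethylase gene, and Suv39h2, an H3K9 methyltransferase gene, fell. Kdm4c, which encodes a demethylase of trimethylated H3K9, rose. Genes were tested with edgeR (quasi-likelihood F test over all genes), genes with a Benjamini-Hochberg adjusted p below 0.05 were called, and 39 of the 41 genes passed the filter on low counts. Calls lower in the knockouts covered 2.8% of the 14766 genes tested and calls higher covered 2.03%, together 4.83%. The 3 lower genes are 7.69% of the 39 and the 4 called genes 10.3%, so the counts are small and sit above the shares over all genes without a test of that excess.

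Promoter windows of the 4 called genes are shown because they are the members that passed the test, and because Kdm4c, the gene that rose, differs from the other 3 in having 2 listed start sites of unlike base composition. Each window runs from 250 bases before to 50 after a transcription start in RefSeq on GRCm38.p6, which is mm10 with patches. The Kmt2d window is chr15:98871156-98871455 on the minus strand, that of Kdm5b chr1:134559928-134560227 on the plus strand, and that of Suv39h2 chr2:3474937-3475236 on the minus strand. The windows of Kdm4c are chr4:74242247-74242546 and chr4:74251629-74251928 on the plus strand. Capitals mark the GC box GGGCGG or its reverse complement CCGCCC, and in Suv39h2 also the palindrome TGACGTCA, known as the cAMP response element.
Kmt2d: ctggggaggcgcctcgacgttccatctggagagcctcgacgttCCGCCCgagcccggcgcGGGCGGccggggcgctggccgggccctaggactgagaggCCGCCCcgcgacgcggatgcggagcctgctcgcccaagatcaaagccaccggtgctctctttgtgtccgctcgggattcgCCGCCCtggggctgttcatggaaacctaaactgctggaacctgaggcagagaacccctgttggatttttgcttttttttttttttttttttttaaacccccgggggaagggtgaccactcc
Kdm5b: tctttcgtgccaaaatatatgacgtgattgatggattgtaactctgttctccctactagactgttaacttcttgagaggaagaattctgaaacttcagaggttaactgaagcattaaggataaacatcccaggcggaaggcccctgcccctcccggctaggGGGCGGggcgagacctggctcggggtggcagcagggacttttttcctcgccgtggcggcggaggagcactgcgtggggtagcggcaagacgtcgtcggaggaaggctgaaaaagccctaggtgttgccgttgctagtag
Suv39h2: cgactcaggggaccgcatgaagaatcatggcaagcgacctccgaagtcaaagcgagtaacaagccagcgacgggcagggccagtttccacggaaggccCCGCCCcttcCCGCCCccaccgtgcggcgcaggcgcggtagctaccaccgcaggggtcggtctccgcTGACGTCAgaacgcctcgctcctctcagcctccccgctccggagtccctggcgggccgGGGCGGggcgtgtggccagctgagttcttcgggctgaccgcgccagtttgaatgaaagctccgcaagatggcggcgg
Kdm4c first start: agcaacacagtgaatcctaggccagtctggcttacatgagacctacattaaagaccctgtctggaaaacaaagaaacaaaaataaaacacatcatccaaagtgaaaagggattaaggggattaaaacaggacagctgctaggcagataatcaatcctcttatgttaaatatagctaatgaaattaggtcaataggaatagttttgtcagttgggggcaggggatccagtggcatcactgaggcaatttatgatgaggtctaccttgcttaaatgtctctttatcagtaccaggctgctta
Kdm4c second start: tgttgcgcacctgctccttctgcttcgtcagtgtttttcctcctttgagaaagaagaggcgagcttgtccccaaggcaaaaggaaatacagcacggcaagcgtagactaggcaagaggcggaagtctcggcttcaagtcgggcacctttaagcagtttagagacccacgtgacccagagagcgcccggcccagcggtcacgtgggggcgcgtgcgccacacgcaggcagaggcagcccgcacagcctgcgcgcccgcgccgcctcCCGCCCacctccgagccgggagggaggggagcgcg

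The first Kdm4c window has no CG dinucleotide and no GC box, and 40% of its bases are G or C. The second has 28 CG dinucleotides and 1 GC box. The windows of Kmt2d, Kdm5b and Suv39h2 hold 27, 17 and 33 CG dinucleotides and 4, 1 and 3 GC boxes. Read counts per gene do not say which Kdm4c start was used. Start sites of unlike composition are not particular to Kdm4c. The windows of Kdm3a, which was not called, hold 0, 40 and 24 CG dinucleotides.

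RefSeq windows were matched for 28 of the 41 genes, 37 windows in all. A GC box on either strand was present in 27 of the 37, 73%, against 35.7% of all 32851 windows. The median number of CG dinucleotides was 28, against 7 over all windows. All windows belong to 27025 genes, which include genes not tested here, so they do not match the members in expression. CCAAT on either strand was in 35.1% of the members' windows and 37.4% of all, and CACGTG in 10.8% and 7.15%. The letters TTTGGCGC, TTTCGCGC, TTTCCCGC or TTTGCCGC, forms of the E2F site, were found in 1 member window, that of Suv39h1, 2.7% against 2.26% of all. The palindrome TGACGTCA was in 2 member windows, those of Suv39h2 and Phf8, 5.41% against 1.79% of all. These motifs were chosen after the expression values were seen, and a match is only a match of letters.

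Levels of the 41 genes ran over a wide range, and H3K4 demethylases were the most abundant of them. Levels between genes are compared as counts per 1e6 reads (CPM, scaled to TMM-adjusted library size) per kb of exon. Kdm1a stood at 20.6 ± 1.15 CPM per kb in knockouts and 20.9 ± 1.74 in controls (SD, n = 3 each), first of the 41. Kdm1b, its paralogue, which acts in gene bodies and in growing oocytes, followed with 15.9 ± 2.04 in knockouts and 17.2 ± 1.20 in controls. The next were Ehmt2, Kdm5a and Kdm3a, with means over the 6 libraries of 13.3, 13.1 and 10.2 CPM per kb. Exons of Dek overlap those of Kdm1b on the other strand. Dek had 1779, 1813 and 2194 reads in knockouts and 2719, 2575 and 3181 in controls. The strand setting was not given, so the Kdm1b values may hold some reads of Dek. At the other end Kdm4d, a testis-enriched gene of spermatids, had 4, 2 and 1 reads in the knockouts and 1, 4 and 1 in the controls. Kdm4a had 21, 20 and 7 reads in the knockouts and 0, 8 and 10 in the controls, where the 0 in control 1 allows up to 0.287 CPM (3 reads, counting error only). Kdm4d and Kdm4a did not pass the filter and were not tested. Prdm9 had 23, 15 and 46 reads in knockouts and 33, 9 and 31 in controls.

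**Figure D1:**
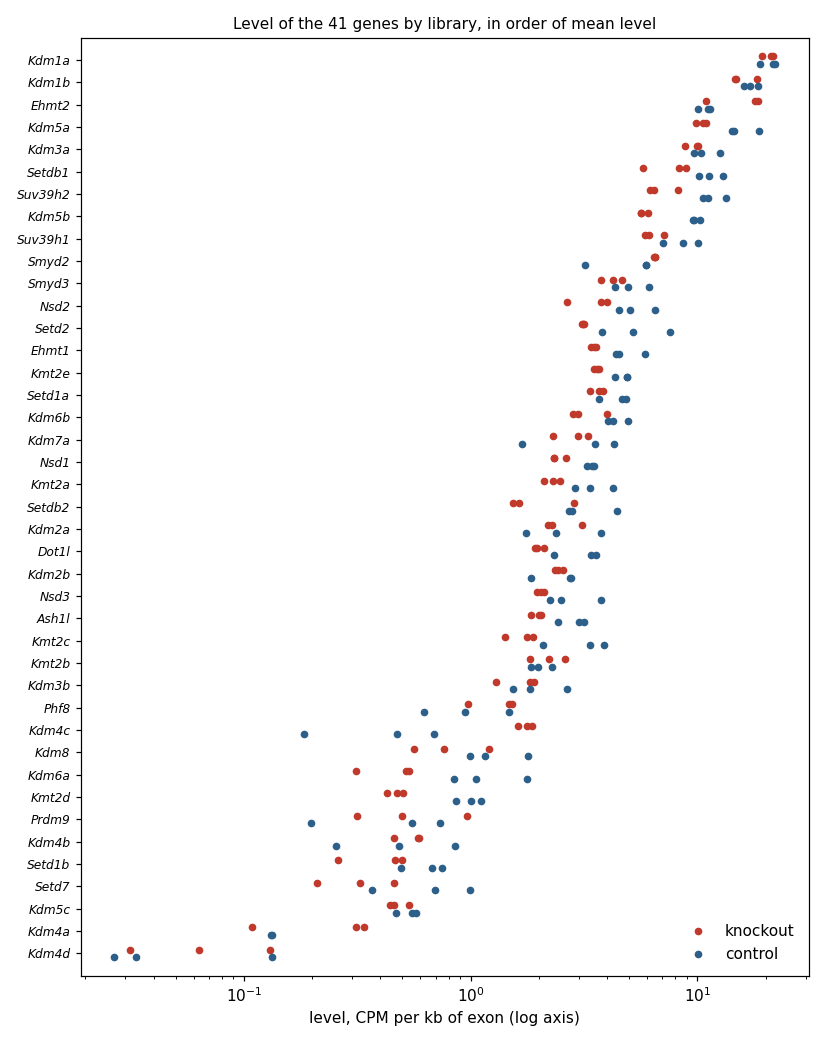
Level of each of the 41 genes in CPM per kb of exon (log axis), with 3 knockout (red) and 3 control (blue) libraries as points; the control library of Kdm4a without a read is not drawn. Kdm1a leads with means of 20.6 in knockouts and 20.9 in controls, and the red points of Kdm4c lie to the right of its blue points.

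The libraries differ in ways that touch every gene. Total counts were 11656130 to 12497967 in the knockouts and 8428871 to 11893287 in the controls. Mitochondrially encoded transcripts took 19.8% to 20.1% of reads in knockouts and 14.0% to 16.9% in controls. Knockout 1 and knockout 2 were closer to each other (mean chi-square per gene 1.78, where sampling noise gives 1) than the other 14 pairs (11.96 to 104), so their independence is not shown and results are also given with the pair as 1 library. Ddx20 itself held 128, 168 and 119 reads in the knockouts and 668, 383 and 531 in the controls (log2 fold change −1.89, edgeR adjusted p 0.0118). Among germ cell markers Dazl had 26922 to 36910 reads in each library, and its CPM overlapped between groups. Ddx4 had 452.2, 455.6 and 486.1 CPM in knockouts and 315.4, 384.9 and 396.0 CPM in controls, and was not called. All knockouts lay below all controls for Gfra1, Ret, Zbtb16, Sall4, Id4, Etv5, Nanos2 and Nanos3, as for 15.8% of all tested genes. In the knockouts 3 of 12 listed genes of germ cells and undifferentiated spermatogonia were called lower and 0 higher, with a median log2 fold change of −0.60. Of differentiating spermatogonia 2 of 4 were called lower. Of other cell types, 2 of 5 tested Sertoli cell markers, 2 of 4 of smooth muscle and 2 of 6 of T lymphocytes were called higher, and no Leydig, endothelial, macrophage or erythroid marker was called. Their part in the results on the 41 genes was not tested, and in such bulk samples fewer cells of a type and less RNA per cell cannot be told apart.

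Among the H3K4 writers 1 of 8 was called, Kmt2d, which was lower. Kmt2d (ENSMUSG00000048154, chromosome 15, 98831669 to 98871204, minus strand of mm10) encodes with its paralogue Kmt2c the enzymes that monomethylate H3K4 at enhancers. It had 8.55, 10.1 and 9.45 CPM in the knockouts and 22.1, 17.2 and 19.9 CPM in the controls. The 3 knockout libraries were all below the lowest control. The means were 9.36 ± 0.763 CPM in knockouts and 19.7 ± 2.45 CPM in controls (SD, n = 3 each), a log2 fold change of −1.07 ± 0.24 (SE; edgeR adjusted p 0.0356). At 92 to 111 reads per knockout library and 181 to 260 per control library over 19931 bases of exon, it is thinly covered.

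The other H3K4 writers did not pass. Kmt2c had 38.2, 28.8 and 35.9 CPM in knockouts and 78.6, 68.4 and 42.4 CPM in controls, groups that did not overlap, with a log2 fold change of −0.88 ± 0.23 (SE) and an edgeR adjusted p of 0.0577. Kmt2a, the founder of the MLL family, had 38.5, 35.0 and 41.5 CPM in knockouts and 70.8, 56.3 and 48.3 CPM in controls, with a log2 fold change of −0.61 and an edgeR adjusted p of 0.0835. Kmt2b, which trimethylates H3K4 at promoters and is needed for spermatogenesis in mice, lay at 21.3 ± 3.82 CPM in knockouts and 19.5 ± 2.11 CPM in controls (SD, n = 3 each). Its log2 fold change was 0.12, and it turned to −0.13 with scaling by library size alone. Of the summed CPM per kb of Kmt2a, Kmt2b, Kmt2c and Kmt2d, Kmt2b held 36.1%, 35.5% and 27.8% in knockouts. In controls it held 16.6%, 23.0% and 24.9%, so all knockouts lay above all controls. Kmt2e, classed apart, is left out of this sum. Among single tested genes 16.8% had all knockouts above all controls, and no such figure was computed for shares within other gene families.

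Setd1a, the catalytic gene of a SET1 complex and the most abundant H3K4 writer per kb, had 22.9, 25.0 and 26.1 CPM in knockouts and 24.9, 32.8 and 31.5 CPM in controls, with overlapping groups. Its paralogue Setd1b had 5.58, 5.99 and 3.15 CPM in knockouts and 8.12, 9.02 and 5.98 CPM in controls. Setd7, a monomethyltransferase that also acts on other proteins, stood at 3.58 ± 1.34 CPM in knockouts and 7.43 ± 3.40 CPM in controls (SD, n = 3 each), with a log2 fold change of −1.05 ± 0.47 (SE). Prdm9 had a log2 fold change of 0.26 ± 0.69 (SE), an error larger than the value. The edgeR adjusted p of these 4 genes ran from 0.204 to 0.863.

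Among the H3K4 erasers 1 of 5 was called, Kdm5b, which was lower. Kdm5b (ENSMUSG00000042207, chromosome 1, 134560171 to 134635285, plus strand) encodes a JmjC demethylase of trimethylated H3K4. It had 100.4, 93.4 and 92.9 CPM in the knockouts and 169.8, 158.3 and 159.9 CPM in the controls. The groups stood well apart, with a narrow spread in each: 95.6 ± 4.18 CPM in knockouts and 162.7 ± 6.24 CPM in controls (SD, n = 3 each), 1.70-fold lower in knockouts. The log2 fold change was −0.77 ± 0.14 (SE; edgeR adjusted p 0.0205), the smallest among the 39 tested genes. Its paralogue Kdm5a, the most abundant of the KDM5 genes per kb, had 139.0, 155.0 and 150.1 CPM in knockouts and 205.9, 264.4 and 201.0 CPM in controls, without overlap, and a log2 fold change of −0.60 ± 0.16 (SE; edgeR adjusted p 0.0609). The X-linked Kdm5c was low, with 3.40 ± 0.355 CPM in knockouts and 3.78 ± 0.386 CPM in controls (SD, n = 3 each).

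The flavin oxidase genes did not differ beyond their spread. Kdm1a, the catalytic gene of the CoREST complex, had 111.5, 109.1 and 100.2 CPM in knockouts and 111.9, 114.4 and 97.7 CPM in controls. Its log2 fold change was −0.01 ± 0.14 (SE), and with scaling by library size alone it was −0.28. Kdm1b had 81.3, 80.4 and 100.3 CPM in knockouts and 101.7, 88.6 and 94.0 CPM in controls, with a log2 fold change of −0.12 ± 0.15 (SE).

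**Figure D2:**
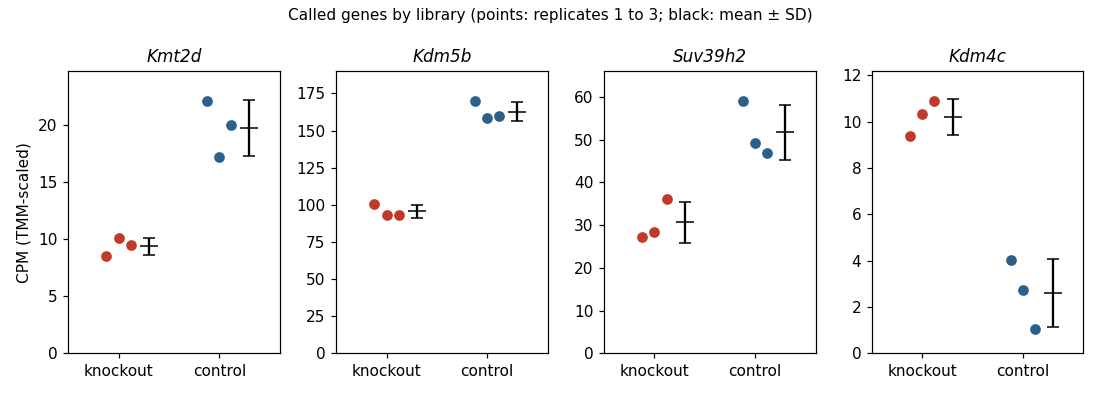
CPM of the 4 called genes in each library, 3 knockout points (red) to the left of 3 control points (blue), with mean ± SD in black; each vertical axis starts at 0. In each panel the groups do not overlap: Kmt2d, Kdm5b and Suv39h2 are lower in knockouts and Kdm4c is higher.

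Among the H3K9 writers 1 of 6 was called, Suv39h2, which was lower. Suv39h2 (ENSMUSG00000026646, chromosome 2, 3455815 to 3475031, minus strand) encodes the testis-enriched paralogue of the enzymes that trimethylate H3K9 in heterochromatin. It had 27.2, 28.5 and 36.2 CPM in the knockouts and 59.0, 49.3 and 46.8 CPM in the controls. The groups did not overlap. The means were 30.6 ± 4.85 CPM in knockouts and 51.7 ± 6.46 CPM in controls (SD, n = 3 each), a log2 fold change of −0.75 ± 0.19 (SE; edgeR adjusted p 0.0468), close to the threshold. Exons of Dclre1c and Gm13184 overlap it on the other strand, and Dclre1c had 86, 92 and 106 reads in knockouts and 131, 80 and 61 in controls. Its X-linked paralogue Suv39h1 had 32.3, 30.8 and 37.5 CPM in knockouts and 45.5, 52.8 and 37.0 CPM in controls, with overlap at knockout 3, with a log2 fold change of −0.42 ± 0.19 (SE) and an edgeR adjusted p of 0.204.

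Ehmt1 and Ehmt2, which form a heterodimer that dimethylates H3K9, had opposite signs. Ehmt2, the most abundant H3K9 writer per kb, had 98.2, 101.7 and 59.7 CPM in knockouts and 55.4, 62.2 and 61.4 CPM in controls. Knockout 1 and 2 were high and knockout 3 lay within the controls, and the log2 fold change of 0.54 ± 0.20 (SE) did not pass (edgeR adjusted p 0.144). Ehmt1 had 28.9, 27.7 and 28.4 CPM in knockouts and 47.7, 36.5 and 35.4 CPM in controls, without overlap, with a log2 fold change of −0.49 ± 0.19 (SE) and an edgeR adjusted p of 0.143. The share of Ehmt2 in the summed CPM per kb of both was 83.4%, 84.5% and 75.6% in knockouts and 63.2%, 71.6% and 71.9% in controls.

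Setdb1, which methylates H3K9 at retroelements with KAP1, had 60.8, 56.8 and 39.4 CPM in knockouts and 89.0, 77.0 and 69.9 CPM in controls. The groups did not overlap, and the log2 fold change of −0.59 ± 0.19 (SE) had an edgeR adjusted p of 0.0993. Setdb2 had 6.23, 6.62 and 11.6 CPM in knockouts and 17.9, 11.3 and 10.96 CPM in controls, with overlap between knockout 3 and the controls. Its log2 fold change was −0.71 ± 0.34 (SE; edgeR adjusted p 0.237).

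Among the H3K9 erasers 6 of 8 were tested and 1 was called, Kdm4c, which was higher. Kdm4c (ENSMUSG00000028397, chromosome 4, 74242497 to 74405860, plus strand) had 101, 114 and 121 reads in the knockouts and 42, 29 and 14 reads in the controls. This is 9.39, 10.3 and 10.9 CPM in the knockouts and 4.01, 2.75 and 1.07 CPM in the controls, so that each knockout library stood above the highest control. The means were 10.2 ± 0.761 CPM in knockouts and 2.61 ± 1.47 CPM in controls (SD, n = 3 each), 3.91-fold higher, with a log2 fold change of 1.97 ± 0.46 (SE) and an edgeR adjusted p of 0.0402. It was the sole called member that was higher.

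The paralogues of Kdm4c did not pass or were not tested. Kdm4b had 2.88, 2.90 and 2.25 CPM in knockouts and 1.24, 4.18 and 2.38 CPM in controls, with a log2 fold change of 0.04 ± 0.59 (SE). Kdm4a, not tested, had 1.95, 1.81 and 0.630 CPM in knockouts and 0, 0.759 and 0.767 CPM in controls. Of the summed CPM per kb of the KDM4 genes, Kdm4c held 60.4%, 64.7% and 75.7% in knockouts and 70.6%, 29.7% and 22.2% in controls, where control 1 lay within the knockouts.

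Kdm3a, a demethylase gene of mono- and dimethylated H3K9 that in mouse is needed in spermatids, was the most abundant H3K9 eraser. It had 81.7, 82.9 and 72.2 CPM in knockouts and 103.3, 79.4 and 84.9 CPM in controls, with overlapping groups and a log2 fold change of −0.18 ± 0.16 (SE). Its paralogue Kdm3b stood at 23.6 ± 4.61 CPM in knockouts and 28.3 ± 8.08 CPM in controls (SD, n = 3 each). Kdm7a and Phf8, which share a PHD finger beside the JmjC domain, had log2 fold changes of −0.15 ± 0.31 and 0.39 ± 0.36 (SE). The edgeR adjusted p of these 4 genes and of Kdm4b ran from 0.535 to 0.976.

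Both genes classed as H3K27 erasers, Kdm6a and Kdm6b, had all knockouts under all controls, as 15.8% of all tested genes had, and neither passed. The X-linked Kdm6a, also called UTX, had 47, 29 and 50 reads in knockouts and 93, 157 and 92 reads in controls, or 4.37, 2.63 and 4.50 CPM in knockouts and 8.88, 14.9 and 7.05 CPM in controls. Its log2 fold change of −1.42 ± 0.40 (SE) was the most negative of the 39, with an edgeR adjusted p of 0.0691. Kdm6b, the more abundant of the pair per kb, had 20.7, 19.7 and 27.6 CPM in knockouts and 29.4, 28.0 and 34.3 CPM in controls, a log2 fold change of −0.43 ± 0.21 (SE; edgeR adjusted p 0.241).

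The 5 H3K36 writers shared a direction, and none was called. In all 5 the knockout libraries lay below the lowest control, where 15.8% of all tested genes do so, and all 5 had an unadjusted p under 0.05 and a log2 fold change below 0, as 12.8% of all tested genes had. Nsd2, a dimethyltransferase gene and the most abundant of them per kb, had 66.9, 63.1 and 44.7 CPM in knockouts and 109.8, 84.5 and 75.9 CPM in controls (log2 fold change −0.63 ± 0.20 SE, edgeR adjusted p 0.0938). Setd2, the main enzyme that trimethylates H3K36, had 364, 372 and 371 reads in knockouts and 851, 432 and 733 reads in controls, on average 33.7 ± 0.232 CPM in knockouts and 59.5 ± 20.3 CPM in controls (SD, n = 3 each). Scaled to CPM the knockouts were nearly equal and the controls spread widely, and the log2 fold change was −0.82 ± 0.23 (SE; edgeR adjusted p 0.0679). Nsd1 had 45.8, 40.6 and 40.6 CPM in knockouts and 61.2, 57.0 and 59.7 CPM in controls, a log2 fold change of −0.49 ± 0.15 (SE; edgeR adjusted p 0.0912). Ash1l, a trithorax-group dimethyltransferase gene, and Nsd3 had log2 fold changes of −0.55 ± 0.18 and −0.47 ± 0.21 (SE), with edgeR adjusted p of 0.102 and 0.205.

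The genes classed as H3K36 erasers, Kdm2a and Kdm2b, stood beside them without such a difference. Each gene was put in a single class, and Kdm4a, Kdm4b, Kdm4c and Kdm7a count here as H3K9 erasers alone. Kdm2a, which binds CpG islands through a CXXC domain, had 33.1, 44.9 and 31.6 CPM in knockouts and 34.2, 54.5 and 25.2 CPM in controls, a log2 fold change of −0.05 ± 0.27 (SE). Kdm2b, also a subunit of a variant Polycomb complex, stood at 26.6 ± 1.00 CPM in knockouts and 26.7 ± 5.65 CPM in controls (SD, n = 3 each). Their log2 fold changes were −0.28 and −0.27 with scaling by library size alone.

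Dot1l, the H3K79 writer gene, had 17.01, 18.3 and 16.7 CPM in knockouts and 29.6, 31.0 and 20.4 CPM in controls. The groups did not overlap, and the log2 fold change of −0.64 ± 0.23 (SE) did not pass (edgeR adjusted p 0.122). Of the genes with weak or mainly non-histone activity, Kmt2e had 37.8, 36.5 and 38.5 CPM in knockouts and 50.9, 45.3 and 51.1 CPM in controls (log2 fold change −0.38 ± 0.16 SE). Smyd2, a methyltransferase gene for p53 and other proteins and the most abundant of these per kb, had 17.7, 17.4 and 17.6 CPM in knockouts and 8.69, 16.1 and 16.2 CPM in controls. All knockouts lay above all controls, and the log2 fold change of 0.36 ± 0.28 (SE) was 0.12 without control 1. Smyd3 had a log2 fold change of −0.28 ± 0.19 (SE). Kdm8, whose demethylase activity is debated, had 2.88, 1.81 and 1.35 CPM in knockouts and 4.30, 2.37 and 2.76 CPM in controls. The edgeR adjusted p of Kmt2e, Smyd2, Smyd3 and Kdm8 ran from 0.173 to 0.539.

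**Figure D3:**
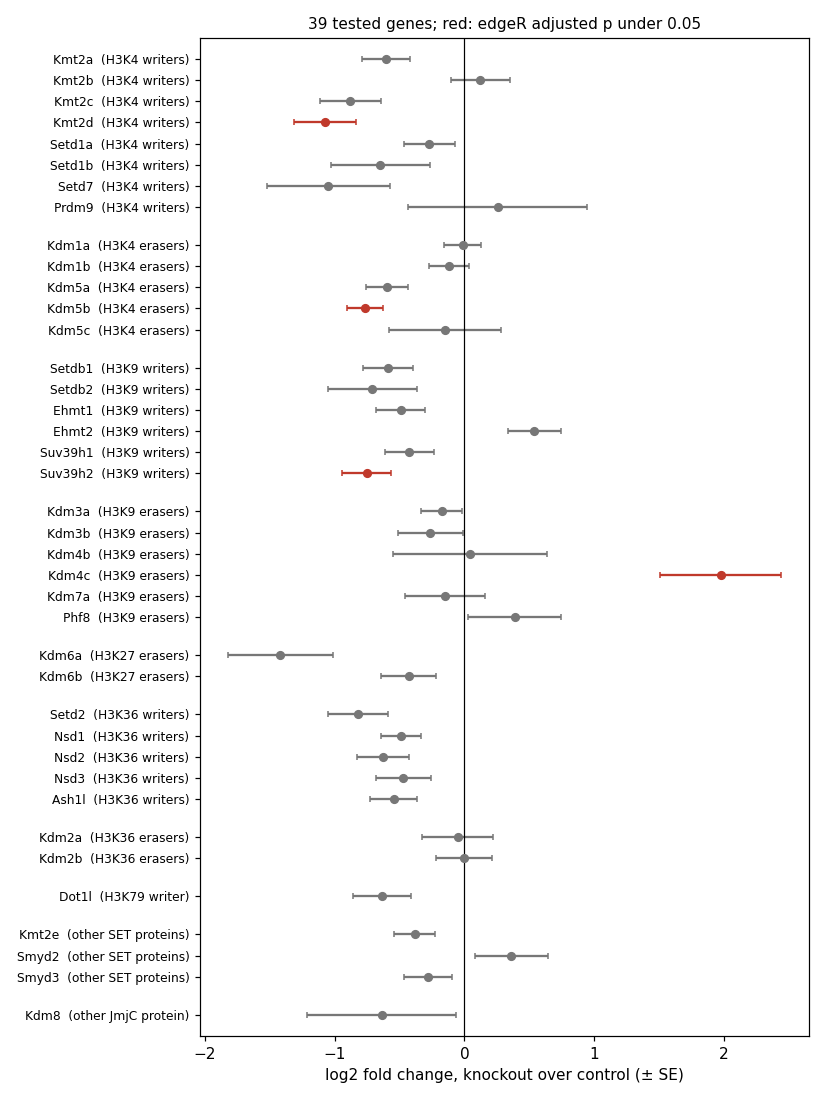
Log2 fold change of knockout over control with its standard error for the 39 tested genes, grouped by residue and role; red marks the 4 with an edgeR adjusted p under 0.05. Of the 39 points 32 lie left of 0, and Kdm4c stands apart on the right at 1.97.

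Seen together, the tested members leaned to lower values in the knockouts. Of the 39, 32 had a log2 fold change below 0, 82.1% against 49.7% of all tested genes, and their median was −0.43 against 0.01. In 17 members, 43.6%, all knockouts lay below all controls, against 15.8% of all tested genes, and in 2 members, 5.13%, all lay above, against 16.8%. At an unadjusted p under 0.05, 18 were lower and 2 were higher, against 12.8% and 11.3% of all tested genes, or 24.1% in either direction. Writers had a median of −0.55 and 13 of 23 below all controls, erasers a median of −0.15 and 4 of 16, a difference that was not tested.

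Other tests called more members, and more of all genes. DESeq2 called 8 members lower and 1 higher, against 5.74% and 5.38% of all genes (11.1% together), and limma-voom called 13 lower and 2 higher, against 11.3% and 7.38% (18.7% together). With library size alone edgeR called 11 lower and 0 higher, against 7.8% and 1.53% (9.33% together), and without a filter 5 lower and 1 higher, against 2.29% and 1.96% (4.25% together).

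Scaling sets where 0 lies. With library size alone the log2 fold changes had a median of −0.26 over all genes and −0.70 over the members, so directions are relative to TMM scaling. Over the 20 fits made, which share libraries, 26 members stayed below 0 and 4 above it in each (Ehmt2, Kdm4c, Phf8 and Smyd2), and 9 changed sign.

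With knockout 1 and 2 as 1 library edgeR called none of the 39 members, while 12 were lower and 1 higher at an unadjusted p under 0.05, against 7.56% and 6.39% of all genes in that fit. Adjusted p was then 0.145 for Kdm5b, 0.189 for Kmt2d, 0.170 for Kdm4c and 0.241 for Suv39h2, with log2 fold changes of −0.77, −1.06, 2.00 and −0.68. In that setting limma-voom called Kdm5b and Kdm4c (adjusted p 0.0269 and 0.0344), and DESeq2 called Kdm5b (0.0109) and gave no adjusted p for Kdm4c. No member was called by edgeR without control 2, knockout 1, knockout 2 or knockout 3, where 12 to 19 members were lower and 1 to 2 higher at an unadjusted p under 0.05, against 7.53% to 12.1% and 6.45% to 12.7% of all genes. Without control 1 or control 3 Suv39h2 had an adjusted p of 0.0618 and 0.0502. With the replicate number as a block the edgeR adjusted p was 0.0526 for Kmt2d and 0.0585 for Suv39h2, and with library size alone it was 0.0566 for Kdm4c.

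Summed over each class, the levels lay lower in knockouts for 6 of 10 classes without overlap of the libraries. Among single tested genes 15.8% had all knockouts below all controls. The sums hold the members described above, and no such share was computed for sums of other genes. H3K36 writers summed to 13.8, 13.2 and 12.04 CPM per kb in knockouts and 23.2, 16.8 and 19.9 in controls. H3K4 writers summed to 11.6 ± 0.608 CPM per kb in knockouts and 15.8 ± 1.404 in controls (SD, n = 3 each), and H3K27 erasers to 3.72 ± 0.709 and 5.62 ± 0.287. H3K4 erasers were the largest class, with 53.2 ± 0.873 CPM per kb in knockouts and 64.3 ± 3.46 in controls. H3K9 writers had 42.2 ± 3.37 in knockouts and 50.8 ± 4.64 in controls, and the sixth class is Dot1l alone. H3K9 erasers had 18.1 ± 1.98 CPM per kb in knockouts and 18.2 ± 3.21 in controls, with overlap. H3K36 erasers, here Kdm2a and Kdm2b, had 4.97 ± 0.490 in knockouts and 5.08 ± 1.47 in controls, also with overlap.

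**Figure D4:**
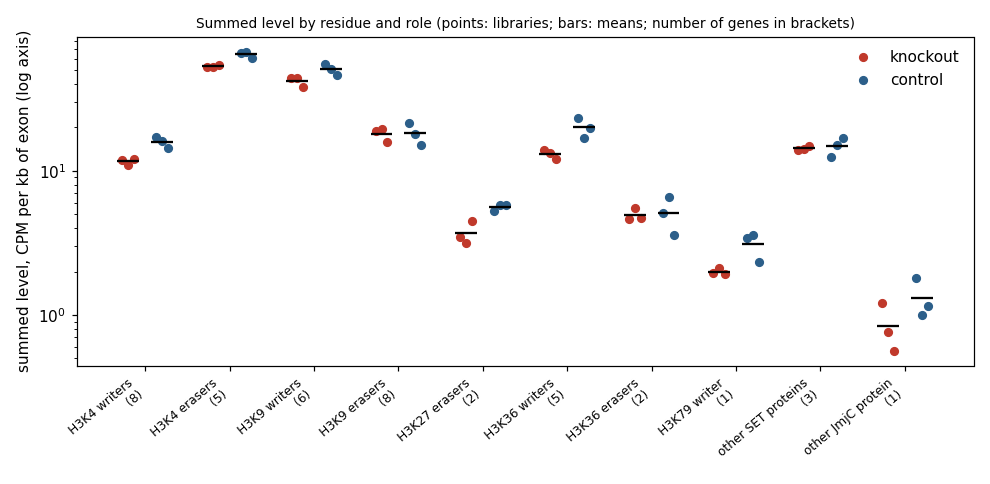
Summed level of each class in CPM per kb of exon (log axis), with knockout libraries (red) left of control libraries (blue), bars at the means and the number of genes in brackets. The groups stand apart for H3K36 writers, at 12.04 to 13.8 in knockouts and 16.8 to 23.2 in controls, and overlap for H3K9 and H3K36 erasers.

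Within a library the ratio of eraser to writer level for a residue does not depend on scaling. It can still depend on gene length and base composition, and no trend on these was taken out here. For H3K9 it was 0.427, 0.442 and 0.413 in knockouts and 0.387, 0.354 and 0.326 in controls, all knockouts above all controls. For H3K4 it was 4.43, 4.83 and 4.49 in knockouts and 3.82, 4.18 and 4.21 in controls, again without overlap. For H3K36, with Kdm2a and Kdm2b as the erasers, it was 0.336, 0.420 and 0.393 in knockouts. In controls it was 0.220, 0.3897 and 0.181, with control 2 inside the knockouts. With 3 libraries against 3 an exact permutation test cannot give a p below 0.1, and these sums were not tested. Among single tested genes 16.8% had all knockouts above all controls, and no such figure was computed for ratios of other genes.

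The members are long genes, and long genes as a whole had lower values in the knockouts. Their median exon length was 9184 bases, against 4219 over all tested genes. Genes with under 2000 bases of exon had a median log2 fold change of 0.33, those from 8000 to 12000 bases −0.19 and the 813 of at least 12000 bases −0.25. The 12 members of at least 12000 bases had a median of −0.60, and Kmt2d and Kdm5b are among them. Of the genes in that band 5.54% were called lower and 0.246% higher. Across the 39 members Spearman's rho of log2 fold change with exon length was −0.38, against −0.27 across 14763 tested genes with a length, which are not independent and share the same libraries.

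After a trend on exon length and GC was taken out of each library, the members' median was −0.27 and that of all genes −0.01. Kdm5b and Kdm4c were then called (edgeR adjusted p 0.0422 and 0.0367, log2 fold changes −0.54 and 2.08), while Kmt2d and Suv39h2 were not (0.0724 and 0.0530, log2 fold changes −0.84 and −0.70). Of the members 11 were lower and 2 higher at an unadjusted p under 0.05 in that fit, against 12.9% and 10.1% of all genes. Suv39h2, with 4410 bases of exon, and Kdm4c, with 5823, are shorter than most members.

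**Figure D5:**
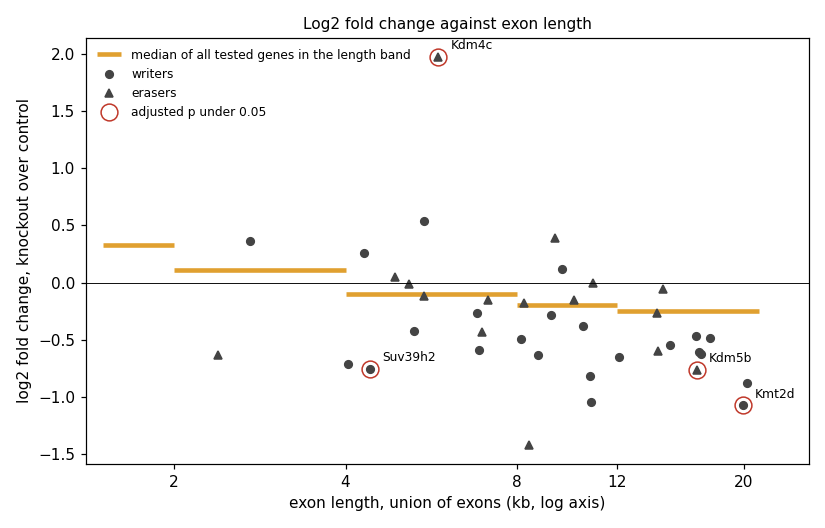
Log2 fold change of knockout over control against exon length in kb (log axis) for the 39 tested genes, writers as circles and erasers as triangles, with the median of all tested genes in each length band as yellow bars (the first band, under 2 kb, is drawn in part). The bars step down from 0.33 to −0.25, and the 12 members of at least 12 kb have a median of −0.60.

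Calls among partner genes of these enzymes were all lower. Over all tested genes 2.8% were called lower and 2.03% higher, and any excess in the lists was not tested. Of 12 listed subunits of COMPASS, the complex family around KMT2 and SET1 enzymes, 10 were tested, 1 was called lower and 0 higher, with a median log2 fold change of −0.44. The called gene was Psip1, a chromatin tether of KMT2A, with 95.7, 95.5 and 92.5 CPM in knockouts and 196.5, 172.3 and 116.1 CPM in controls (log2 fold change −0.77 ± 0.19 SE, edgeR adjusted p 0.0475). Of 10 CoREST genes 1 was lower, the zinc finger gene Zmym2, with 44.1, 41.1 and 38.7 CPM in knockouts and 60.5, 64.0 and 75.6 CPM in controls (log2 fold change −0.69 ± 0.16 SE, edgeR adjusted p 0.0398), and the list median was −0.14.

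Among 11 readers and cofactors of H3K9 methylation 2 were lower, 0 higher and 9 did not pass, with a median log2 fold change of −0.41. Both called genes encode HP1 proteins, which bind methylated H3K9, while the third HP1 gene, Cbx5, had 105.9 ± 3.54 CPM in knockouts and 106.5 ± 23.3 CPM in controls (SD, n = 3 each) and did not pass (log2 fold change −0.01, edgeR adjusted p 0.987). Cbx3 had 83.6, 81.9 and 96.9 CPM in knockouts and 144.8, 183.0 and 166.1 CPM in controls, a log2 fold change of −0.91 ± 0.16 (SE; edgeR adjusted p 0.0179). Cbx1 had 38.1, 38.1 and 43.3 CPM in knockouts and 77.9, 62.7 and 68.7 CPM in controls, a log2 fold change of −0.81 ± 0.16 (SE; edgeR adjusted p 0.0257). The groups of both genes lay far apart. Both genes were also called after the trend was taken out (edgeR adjusted p 0.0172 for Cbx3 and 0.0273 for Cbx1) and were lost by edgeR with knockout 1 and 2 as 1 library (0.128 and 0.169).

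The 4 DOT1L partners and the 21 tested genes of 22 other lysine methyltransferase and JmjC genes held no call by edgeR, with medians of −0.54 and −0.26. Of 10 enzymes that make or clear S-adenosylmethionine and 2-oxoglutarate or their products, with a median of −0.03, 1 was lower, the methionine synthase gene Mtr, with 47.5, 47.3 and 45.9 CPM in knockouts and 112.0, 72.4 and 64.5 CPM in controls. Its log2 fold change was −0.82 ± 0.21 (SE; edgeR adjusted p 0.0494), and 0.0510 with DESeq2 size factors. The calls of Psip1, Zmym2 and Mtr were lost by edgeR with knockout 1 and 2 as 1 library (adjusted p 0.206, 0.196 and 0.201) and after the trend was taken out (0.0619, 0.0570 and 0.0675). Without control 2 or any 1 knockout library edgeR called none of Psip1, Zmym2, Cbx1, Cbx3 and Mtr (adjusted p 0.0513 to 0.207). The Zmym2 call was also lost with the replicate block (0.0552) and without control 3 (0.0611), and that of Psip1 without control 1 (0.0617).

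Marker sums of some other cell types differed in the same libraries. Summed over each whole marker list, Sertoli cell markers had 108.9 to 130.4 CPM in knockouts and 44.5 to 57.7 CPM in controls. Most of the Sertoli cell sum came from Clu, while Sox9, Wt1, Amh and Gata4 overlapped between groups. T lymphocyte markers had 78.1 to 102.5 CPM in knockouts and 47.4 to 67.2 CPM in controls. Cd3d, Cd2 and Ptprc overlapped between groups, while Cd3e, Cd3g and Lck did not. Smooth muscle markers had 151.1 to 223.9 CPM in knockouts and 59.1 to 75.4 CPM in controls, most of it from Acta2, while Myh11, Tagln and Cnn1 overlapped. Macrophage markers had 1336 to 2024 CPM in knockouts and 463.9 to 1117 CPM in controls, most of it from Lyz2, while Cd68, Csf1r, Adgre1 and Cd14 overlapped. Leydig cell, endothelial and erythroid lists overlapped between groups. None of the listed markers was at 0 in all libraries. Whether these cells contribute to the level of Kdm4c or of any other member was not tested.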

How the data were processed

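The authors deposited raw read counts per Ensembl gene for 6 SMART-seq2 libraries, and each of the 22579 genes has at least 1 read. The submitters' processing notes name mm10, edgeR, DESeq2, StringTie 2.1.7, STAR 2.7.5c and Trimmomatic 0.39 but no roles. Strand setting, counter and annotation release were not given in the sources used here, so overlapping genes on opposite strands, which 17 of the 41 members have, cannot be told apart. SMART-seq2 adds no molecular identifiers, so the floor of Kdm4a reflects counting error alone. The authors' deposited mean signal column and their sum column, which equals the row sums, were not used in any test.

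Symbols, positions and exon lengths came from GENCODE M21 on GRCm38 (mm10), where 22562 identifiers matched. All members matched by symbol. Tasor was found under its older symbol Fam208a, and Pagr1a was not analysed here. Tests used edgeR 4.0.16 in R 4.3.3 (quasi-likelihood F) with robust dispersion, TMM scaling, filterByExpr, genotype as the sole term and Benjamini-Hochberg adjustment over all 14766 genes. All p-values are two-sided. A standard error is the log2 fold change divided by the root of F. The labels do not tie libraries to animals or litters, so the spread that p-values measure is that between these samples and may be technical. In 3 simulations of the comparison on 14766 genes, each with 200 genes changed by 1.5 on the log2 scale, 70.5% to 82% were recovered with 5 to 9 false calls. The changed genes had a control mean of at least 5 CPM, so genes as low as Kdm4c and smaller changes are not covered. Simulated libraries were independent, which is not shown for knockout 1 and knockout 2, so the false calls may not carry over to these data.

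The members, lists and classes were chosen with earlier results of these data known. Values per library are given for each called member and for the most abundant member per kb of each class, and other members more briefly. From each partner list up to 4 called genes with the smallest p are named. Alternatives were other scalings and filters, DESeq2 1.42.0, limma-voom (limma 3.58.1) with sample weights, leaving out each library, blocking on replicate number, knockout 1 and 2 as 1 library (rounded mean), mitochondrial genes left out, and a lowess trend (span 0.3) with exon length and GC content removed. The pair as 1 library with DESeq2 or limma-voom, or with the trend removed, was added after seeing the data.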

Additional observations from a re-analysis of the deposited data

How the results depend on the processing

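Ddx20 kept its direction in each fit, and its log2 fold change was −1.94 with knockout 1 and 2 as 1 library (edgeR adjusted p 0.0541), −1.93 with the trend also removed (0.0577), and −2.05 to −1.61 with a library left out (0.0134 to 0.0620). Over all genes 300 were higher and 413 lower. These counts were 794 and 847 by DESeq2 and 1090 and 1675 by limma-voom. With the pair as 1 library they were 1 and 0 by edgeR (2150 genes at an unadjusted p under 0.05), 4 and 4 with the trend also removed, 206 and 259 by DESeq2 and 210 and 198 by limma-voom. Library size alone gave 1152 lower. Leaving out a library gave 2 to 414 higher and 1 to 468 lower. Of the members 1 was called higher and 3 lower. Leaving out a library gave 0 to 1 higher and 0 to 4 lower, library size alone 0 and 11, limma-voom 2 and 13, and the pair as 1 library 0 and 0 by edgeR, with the trend kept or removed, and 0 and 1 by DESeq2. In that setting limma-voom called 1 lower. DESeq2 called 8 lower, the fit without a filter 5, the replicate block 1 and the fit without the length and GC trend 1. The members' median of −0.43 was −0.70 with library size alone, −0.27 with the trend removed, −0.25 with the pair as 1 library as well, and −0.44 to −0.36 with a library left out. The ratio of knockout to control level with library size alone was 0.608 for H3K4 writers, 0.689 for H3K4 erasers, 0.689 for H3K9 writers, 0.535 for H3K36 writers and 0.806 for the SET proteins of weak or mainly non-histone activity. The cause of these changes was not tested. Whether the replicate numbers pair the libraries is not given by the labels. Deviations of same-numbered libraries correlated at −0.00423, 0.00884 and 0.00648. With 3 libraries per group, and knockout 1 and knockout 2 so close, these values cannot settle it. Depth limits Kdm4a, Kdm4d and Prdm9, with 66, 13 and 157 reads in all.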
